A study of Mus musculus with 48 samples.

Results

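The ovary was compared with 3 tissues of the body, liver, kidney and hypothalamus, in purchased mouse RNA measured on microarrays. The ovary stood in the series as 3 RNA samples of 24, numbered 1 to 3, and the arrays were assigned by the tissue word in their titles. Liver, kidney and hypothalamus had 6 RNA samples each, 3 male and 3 female, and testis was left out. Each RNA sample was hybridised to 2 Affymetrix arrays, which gave 6 ovary arrays among 48, and the 2 arrays of a sample were averaged. Per the labels, every RNA sample was a pool of 10 mice and came from a supplier. Ovary, liver and kidney RNA was polyA-selected and hypothalamus RNA was total RNA, although the molecule field says total RNA throughout. The preparation of the RNA and the tissue cannot be told apart between ovary and hypothalamus. No treatment or allele is named, and the sources used here give no strain, age or stage of the oestrous cycle. Whether the 3 ovary samples were separate pools is not stated, and the spread behind each p-value may then be a technical one.

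The ovary holds follicles, each an oocyte wrapped in granulosa cells and, further out, theca cells. Theca cells make androgens from cholesterol and granulosa cells turn these into oestrogens. After ovulation the remains of the follicle become the corpus luteum, which makes progesterone. A connective stroma with smooth muscle and vessels surrounds the follicles, a surface epithelium covers the organ, and the oviduct and a fat pad lie against it.

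Intensities are given in the arrays' own units, scaled to 1 trimmed mean, and a level is compared only with the same probe set in other samples. A log2 difference is the ovary minus another tissue on the scale of log2(intensity + 48.3), which understates the ratio of dim genes. Genes were called at an adjusted p of 0.05 from limma, fitted to all 16735 probe sets tested (10001 genes). A gene is named ovary-enriched here where it passed against each of the 3 tissues, was at least 2-fold higher than each on this scale, and had all 3 ovary samples above all 18 others. The smallest of its 3 log2 differences serves to rank it. Precision is limited by how few arrays there are.

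Libraries were compared first. The labels of sex held: Eif2s3y, a Y-linked translation factor gene, read 1.3, 4.5 and 2.2 in ovary 1, 2 and 3, against 137.5 to 344.2 in the 9 male samples. Female liver, kidney and hypothalamus read 1.5 to 22.8. Xist, the RNA that coats the inactive X chromosome, read 914, 1284.8 and 1749.2 in ovary, against 310.7 to 1927.7 in the female and 149.3 to 285.3 in the male samples. Ovary 1 stood apart from the others. The correlation over tested probe sets was 0.9755 between ovary 1 and 2 and 0.9762 between ovary 1 and 3, but 0.9861 between ovary 2 and 3. In an F test on single arrays, 116 of 14382 probe sets (0.807%) differed between the 3 samples, and ovary 1 was the odd sample in 96 of them. Leaving ovary 1 out and testing the same probe sets gave 702 ovary-enriched probe sets in place of 695, and 658 were shared. These probe sets had been chosen for brightness with ovary 1 included. Counts of gene groups are given below with and without ovary 1 where they differ by more than 1 gene.

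Against the mean of the 3 tissues, 3956 genes were higher in ovary (39.6%) and 2489 lower (24.9%). Counted over probe sets, 6348 (37.9%) were higher and 4115 (24.6%) lower, 62.5% in all. Of the single tissues, ovary was higher than liver in 47.7% of probe sets and lower in 20.8%, higher than kidney in 41.4% and lower in 20.1%, and higher than hypothalamus in 34.3% and lower in 31.8%. In all 3 comparisons at once, 1623 genes were higher (16.2%) and 297 lower (2.97%), which is 15.0% and 2.96% of probe sets. All 3 ovary samples lay above all 18 others in 14.7% of the genes tested and below them in 2.35%. Ovary-enriched genes numbered 465 (4.65%, or 4.15% of probe sets), and 134 of these had a smallest difference of at least 2, 47 of at least 3 and 20 of at least 4. Probe sets were tested where at least 3 RNA samples were bright, so those bright in ovary alone entered through the 3 ovary samples. With ovary 1 left out and this choice repeated, 545 of the 695 enriched probe sets were still tested. The number enriched thus depends in part on that choice. Just inside the 2-fold limit lay Esrp1, Elf2 and Angpt4 with smallest differences of 1.00, 1.007 and 1.007, and just outside lay Dok1, Banf1 and Raly with 0.991, 0.995 and 0.998. The median difference of all genes from the mean of the 3 tissues was 0.12. It was -0.06 with arrays centred on their medians and 0.01 after quantile normalization, so small differences depend on the scaling.

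**Figure D1:**
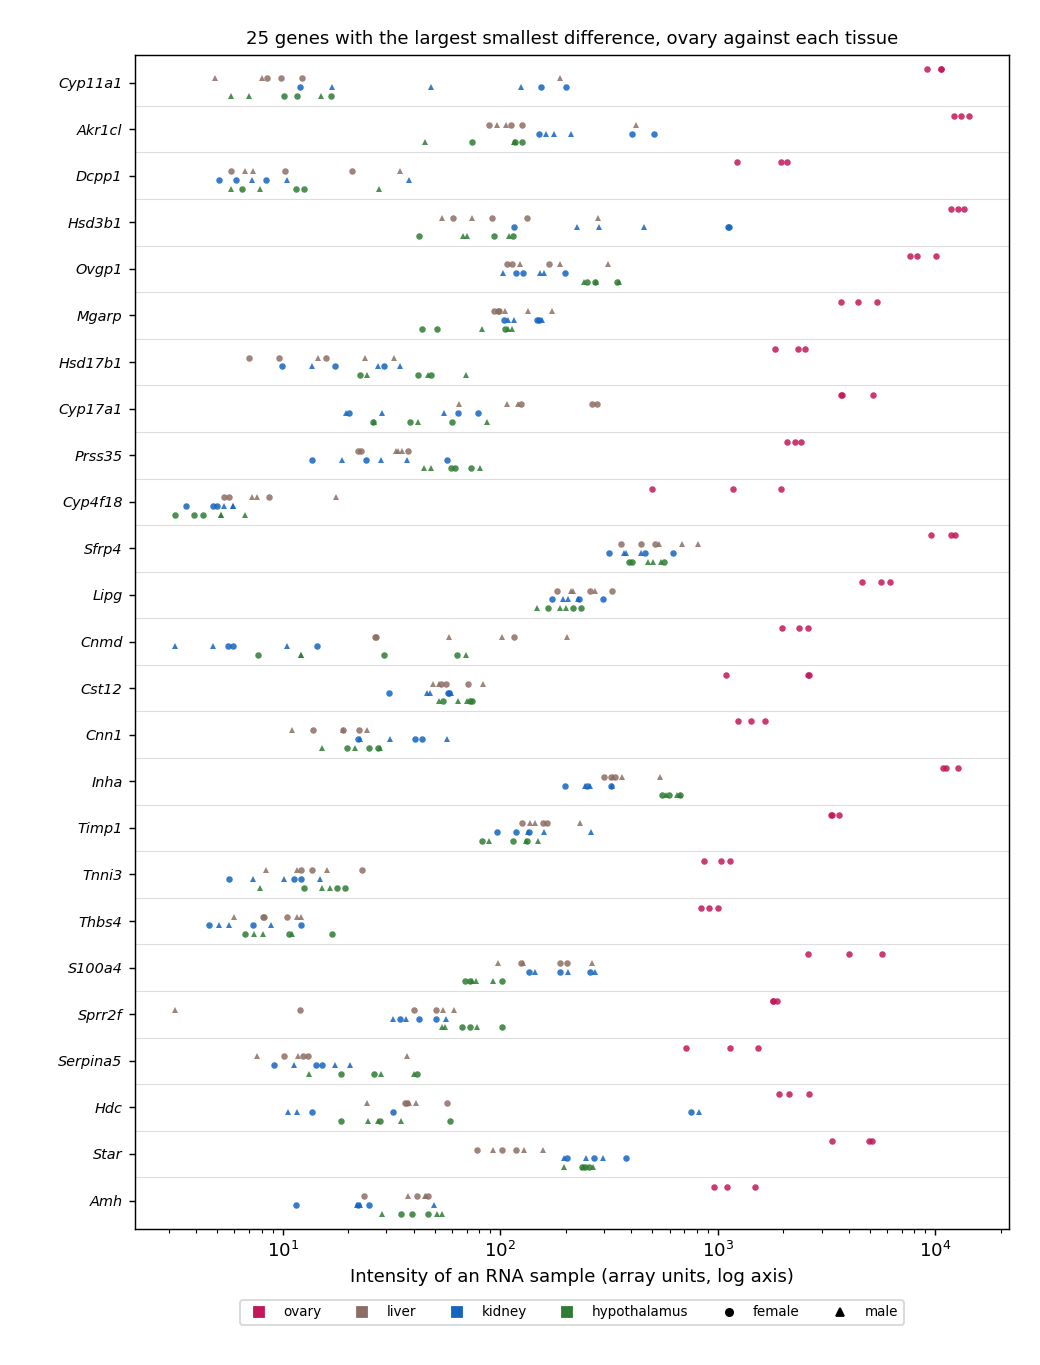
Intensity (array units, log axis) of the 25 genes with the largest smallest difference, 1 point per RNA sample (3 of ovary, 6 of each other tissue, circles female and triangles male). All ovary points of a gene lie to the right of all 18 others, and Hdc comes nearest to an overlap, through 2 kidney samples at 752.5 and 815.7.

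Genes that turn cholesterol into steroid hormones were high in ovary. Of 13 tested genes for steroid synthesis, 10 were higher in ovary, 1 was lower and 9 were ovary-enriched, with a median difference of 3.33. Cyp11a1, the enzyme that cleaves the side chain of cholesterol and so opens steroid synthesis, headed the ranking of all genes. Its intensity was 9114.7, 10575.4 and 10610.2 in ovary 1, 2 and 3. Liver had a lowest value of 4.9, a median of 9.2 and a highest of 188.5. The same 3 values were 12, 86.1 and 200.1 for kidney and 5.8, 10.9 and 16.7 for hypothalamus. The groups did not overlap, and the log2 difference from the mean was 6.97 ± 0.37 (SE, limma adjusted p = 3.94e-12).

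Star carries cholesterol to the inner mitochondrial membrane, where Cyp11a1 sits. It read 3349.1, 4934.4 and 5084.7 in ovary, against medians of 110.3 in liver, 259.2 in kidney and 242.3 in hypothalamus. Its difference of 4.20 ± 0.15 (SE, limma adjusted p = 1.47e-14) comes from the brightest of 3 probe sets, and the others gave 5.55 and 5.85. Hsd3b1, which makes progesterone from pregnenolone, read 11771.1, 13485.2 and 12731.6 in ovary, while liver reached 282, kidney 1130.5 and hypothalamus 114.7 at most. Cyp17a1, the theca enzyme that leads to androgens, read 3673.6, 3702.9 and 5158.9 in ovary and at most 277.4 in any other sample. Hsd17b1, the granulosa enzyme that makes oestradiol from oestrone, read 2347.7, 1821.8 and 2505 in ovary, against at most 69.5 elsewhere. Each of these genes had its 3 ovary samples far above all others, and the differences of Hsd3b1, Cyp17a1 and Hsd17b1 from the mean were 5.93, 5.15 and 4.93.

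The supply of cholesterol and electrons was shared with liver and kidney to a larger degree. Scarb1, the receptor that takes up cholesterol from HDL, read 7507.3, 10394.3 and 11074.6 in ovary, against 3307.9 to 4983.8 in liver, and its smallest difference was 1.27. Fdx1, the ferredoxin that hands electrons to Cyp11a1, read 11444.3, 13917.2 and 13244.9 in ovary, with a median of 5652.1 in liver and 5172.8 in kidney and a smallest difference of 1.14. Hsd17b7, which acts in both cholesterol and oestradiol synthesis, had a smallest difference of 1.95. Stard4, a cytosolic sterol carrier, was lower in ovary by 0.33 on the log2 scale (limma adjusted p = 0.0115). Npc1 and Cyp21a1 did not pass, with differences of -0.11 and -0.03. Of 18 genes of cholesterol synthesis itself, 9 were higher, 1 was lower and 2 were enriched, and 7 were higher without ovary 1. With all samples, 39.6% of all genes tested were higher, 24.9% lower and 4.65% enriched. Dhcr7, the last enzyme of cholesterol synthesis, had a smallest difference of 1.32.

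Steroid enzymes come in families of near copies, and within these families different members marked different organs. The aldo-keto reductases of the AKR1C family reduce ketones of steroids and other molecules. Of 8 tested members, 3 were higher in ovary and 4 lower than the mean of the 3 tissues. The shares of all genes tested were 39.6% higher and 24.9% lower. Akr1c18, which inactivates progesterone in the corpus luteum, read 8744.3, 13372.5 and 9216.4 in ovary. Its range was 66.6 to 1238.9 in liver, 905.2 to 2611.5 in kidney and 56.2 to 185.7 in hypothalamus, and its difference was 4.62 ± 0.45 (SE, limma adjusted p = 3.28e-08). Akr1cl, a relative outside the numbered series, read 12123.2, 14275.2 and 13129.8 in ovary and at most 508.9 in any other sample. Both genes had their 3 ovary samples above all 18 others.

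The other members peaked elsewhere. Akr1c6 read 15.3, 19.5 and 18.6 in ovary, against 10130.7 to 12670.1 in liver. Akr1c20 and Akr1c12 also had their highest values in liver, with ovary samples between 33.3 and 77.2. Akr1c21 read 76.4, 111.1 and 101.6 in ovary, against 2490.9 to 9587.6 in kidney. Akr1c14 was shared: it read 1927.2, 1569.3 and 1315.4 in ovary, with medians of 2734.6 in liver, 1219.9 in kidney and 27.5 in hypothalamus. Its difference of 1.44 rested on hypothalamus and was -0.04 without that tissue (limma adjusted p = 0.897). Akr1c13 did not pass against the mean (0.02), and without hypothalamus it was -1.25.

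Akr1c18, Akr1c6 and Akr1c21, all on mouse chromosome 13, had their highest levels in ovary, liver and kidney in that order, and the stretch around each start site is printed so that these 3 members can be read side by side. Each runs from 250 bases before to 50 after the start in RefSeq's GRCm38.p6, 5′ to 3′ on the gene's own strand: chr13:4150597-4150896 on the minus strand for Akr1c18, chr13:4434093-4434392 on the plus strand for Akr1c6 and chr13:4573825-4574124 on the plus strand for Akr1c21. Capitals mark matches to 4 short motifs searched on both strands.
Akr1c18: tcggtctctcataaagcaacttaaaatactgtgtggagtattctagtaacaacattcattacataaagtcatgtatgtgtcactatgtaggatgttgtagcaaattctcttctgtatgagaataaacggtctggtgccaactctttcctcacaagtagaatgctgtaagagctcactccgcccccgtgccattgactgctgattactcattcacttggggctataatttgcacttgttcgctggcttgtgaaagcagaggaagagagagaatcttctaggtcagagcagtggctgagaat
Akr1c6: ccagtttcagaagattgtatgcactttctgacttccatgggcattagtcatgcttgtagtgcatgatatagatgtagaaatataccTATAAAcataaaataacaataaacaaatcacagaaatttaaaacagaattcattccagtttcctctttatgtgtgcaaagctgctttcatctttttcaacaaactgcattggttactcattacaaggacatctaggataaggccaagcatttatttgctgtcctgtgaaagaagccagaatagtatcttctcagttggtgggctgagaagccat
Akr1c21: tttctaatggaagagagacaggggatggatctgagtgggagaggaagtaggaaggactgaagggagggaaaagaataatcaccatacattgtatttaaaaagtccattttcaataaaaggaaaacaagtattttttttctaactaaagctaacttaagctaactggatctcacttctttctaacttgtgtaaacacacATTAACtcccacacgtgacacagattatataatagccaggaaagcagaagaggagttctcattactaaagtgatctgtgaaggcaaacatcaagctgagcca
The motifs were AAGGTCA, a half-site of the steroidogenic factor Nr5a1, AGATAA, read by GATA factors, GTTAAT, a half-site of the liver and kidney factor HNF1, and TATAAA, the TATA box. The window of the liver gene Akr1c6 held TATAAA, the window of the kidney gene Akr1c21 held GTTAAT on the other strand, and none of the 4 lay in the window of Akr1c18. Over all 32851 windows of the table, AAGGTCA occurred in 4.72%, AGATAA in 11.2%, GTTAAT in 7.10% and TATAAA in 13.6%. In the 449 windows of 359 ovary-enriched genes these shares were 3.12%, 6.46%, 4.45% and 11.8%. A match is a description of letters and not of a bound site.

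**Figure D2:**
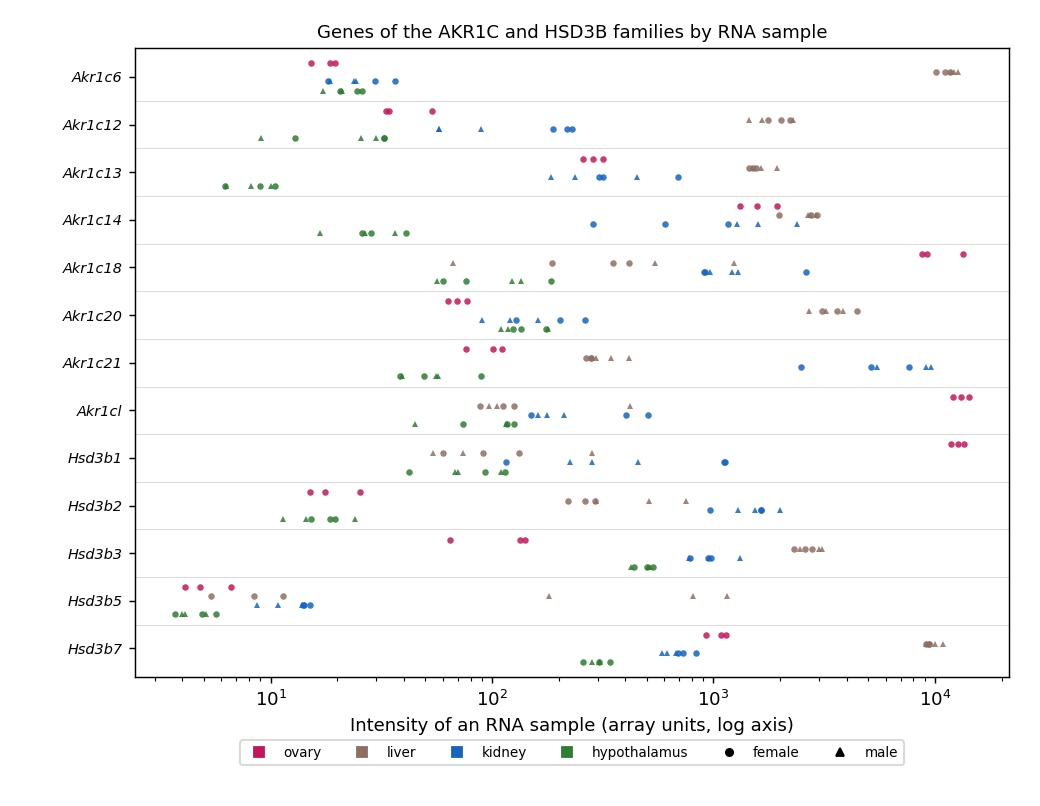
Intensity (array units, log axis) of 8 AKR1C and 5 HSD3B genes, 1 point per RNA sample (3 of ovary, 6 of each other tissue, circles female and triangles male). The ovary points are far to the right for Akr1c18, Akr1cl and Hsd3b1, while Akr1c6 and Hsd3b7 reach their highest values in liver and Akr1c21 and Hsd3b2 in kidney.

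The hydroxysteroid dehydrogenases of the HSD3B family showed the same division. Hsd3b1 was the 1 member of 5 that was higher in ovary, and 4 were lower (2 without ovary 1). Hsd3b2 read 25.3, 17.6 and 15 in ovary, against 962.4 to 1988.1 in kidney, where all samples were higher. Hsd3b3 read 140.7, 64.9 and 133.5 in ovary, against 2312.8 to 3093.4 in liver, though its probe set can read close copies. Hsd3b7, which acts in bile acid synthesis, read 927, 1134.1 and 1077.5 in ovary, against 9078.3 to 10837.8 in liver and 587.7 to 833.8 in kidney. Its difference from the mean, -0.31, turned to 1.11 without liver. Hsd3b5 read 6.6, 4.1 and 4.8 in ovary, and in liver it ranged from 5.4 to 1147.3. Its call was lost without any 1 of the ovary samples (limma adjusted p between 0.0838 and 0.1), and that of Hsd3b7 without ovary 1 (0.0703).

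Of 23 tested genes for inhibins, activins and follicle growth factors, 19 were higher, 3 were lower and 9 were ovary-enriched, with a median difference of 1.19. Inha, the inhibin alpha subunit by which granulosa cells restrain FSH, read 10864.3, 11153.9 and 12644 in ovary. Its highest value was 542.9 in liver, 325.1 in kidney and 671.5 in hypothalamus, and the difference was 4.72 ± 0.12 (SE, limma adjusted p = 1.56e-16). The activin subunits Inhba and Inhbb had smallest differences of 3.02 and 2.36. Fst, the activin-binding follistatin, read 2096.5, 1575.9 and 1700.4 in ovary and at most 248.4 in the other samples.

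Amh, the granulosa hormone that holds back the recruitment of follicles, read 1103, 958.4 and 1476.1 in ovary and at most 53.9 elsewhere. Its receptor Amhr2 read 443.3, 441.7 and 566.2 in ovary and at most 20.3 elsewhere, so both ligand and receptor had all ovary samples above all 18 others. Wnt4, which favours the female path of the gonad, had 674.6, 555.8 and 755.7 in ovary and reached 255.6 in hypothalamus. Kit and its ligand Kitl, which join oocyte and granulosa cell, were higher than the mean by 1.19 and 1.66 and were not ovary-enriched. Fgf9, Acvr2b and Bmp7 were lower than the mean, by 0.45, 0.51 and 0.70 on the log2 scale.

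Of 10 tested receptors of hormones, 4 were higher in ovary, near the 39.6% of all genes, and 4 were lower, against 24.9%. The enriched ones numbered 2, against 4.65% of all genes, and the median difference was -0.02. Under median centring 3 were higher and 4 lower. Ptgfr, the receptor through which prostaglandin F2-alpha ends the corpus luteum, read 2659.5, 4088.2 and 2696.7 in ovary, against at most 368.9 in kidney, 171.4 in hypothalamus and 113.3 in liver. Esr2, the oestrogen receptor of granulosa cells, read 611.6, 697.9 and 836.4 in ovary and at most 73.8 elsewhere. Fshr, the FSH receptor, was dimmer, with 418.2, 304.8 and 393.9 in ovary and at most 194.8 in other samples, and its smallest difference was 0.99. Oxtr, the oxytocin receptor, differed by 0.34 and passed narrowly (limma adjusted p = 0.0364). Pgrmc1, Nr3c1, Adcyap1r1 and Thrb were lower than the mean. Esr1 and Pgr were too dim to be tested, with ovary values of 186.8, 85.3 and 163.5 for Esr1 and of 75, 68.2 and 44.7 for Pgr. Lhcgr, Prlr, Cyp19a1 and Foxl2 were not analysed here.

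Of 16 tested transcription factors of the gonad, 11 were higher, 2 lower and 7 ovary-enriched. Nr5a1, the factor that switches on steroid enzymes, read 1874, 2071 and 2594.5 in ovary and at most 188 elsewhere. Its relative Nr5a2, which acts in granulosa and luteal cells and also in liver, read 2951.7, 2309.7 and 2924.7 in ovary, against 588.1 to 967.4 in liver and at most 167.7 in the other tissues. Gata4 and Gata6 had smallest differences of 1.46 and 1.90, in both cases against liver. Wt1 read 601.7, 648.1 and 666.6 in ovary and at most 96 elsewhere. Sox9, which drives the testis, read 20.9, 26.4 and 7.3 in ovary, against 158.9 to 254.1 in hypothalamus, and Dmrt1, another testis factor, was too dim to be tested.

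Oocyte genes were seen although oocytes are few cells of the organ. Of 19 tested genes of oocyte and egg coat, 15 were higher, 1 was lower and 11 were ovary-enriched. Of 10 further members too dim for the test, 6 had all 3 ovary samples above all 18 others, as did 176 of all 2392 genes too dim for the test (7.36%) and 1650 of all 12393 genes with a probe set (13.3%). Tle6, part of the maternal complex of the egg, read 917.4, 636.6 and 848.1 in ovary and at most 56.7 elsewhere. Zp3, a protein of the egg coat, read 1233.8, 765.6 and 1087.6 in ovary and at most 129 elsewhere. Zp2 and Zp1 had smallest differences of 2.32 and 1.5. Gdf9, the oocyte's growth signal to granulosa cells, read 1637.5, 1229.6 and 1700.2 in ovary and at most 296.6 elsewhere, and its partner Bmp15 276, 213.2 and 315.2, against at most 79.2. In bulk RNA, fewer cells of a type and less RNA per cell cannot be told apart.

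Each of these oocyte genes was lowest in ovary 2. Ovary 1 was the highest of the 3 in 13 of 18 oocyte genes bright enough in ovary (72.2%), against 34.5% of 8714 such genes in all, and ovary 2 in 0. The same tally was 13 of 16 for surface and oviduct genes (81.2%), 18 of 24 for cell cycle genes (75%), 17 of 24 for fibroblast and matrix genes (70.8%) and 8 of 12 for smooth muscle genes (66.7%), so it was not particular to oocyte genes. Nlrp5 and Mos, a component and a kinase of the egg and too dim for the comparison with other tissues, were also highest in ovary 1, with 457.4, 174 and 244.3 and with 155.3, 60.6 and 46.1 in ovary 1, 2 and 3. Nlrp5 was the 1 oocyte gene that passed the F test between the ovary samples. Without ovary 1, 15 oocyte genes were higher and 10 enriched. Figla and Cpeb1 did not pass, with differences of 0.12 and 0.05, and Fmn2 was lower than the mean, with hypothalamus at 880.8 to 1139.8.

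**Figure D3:**
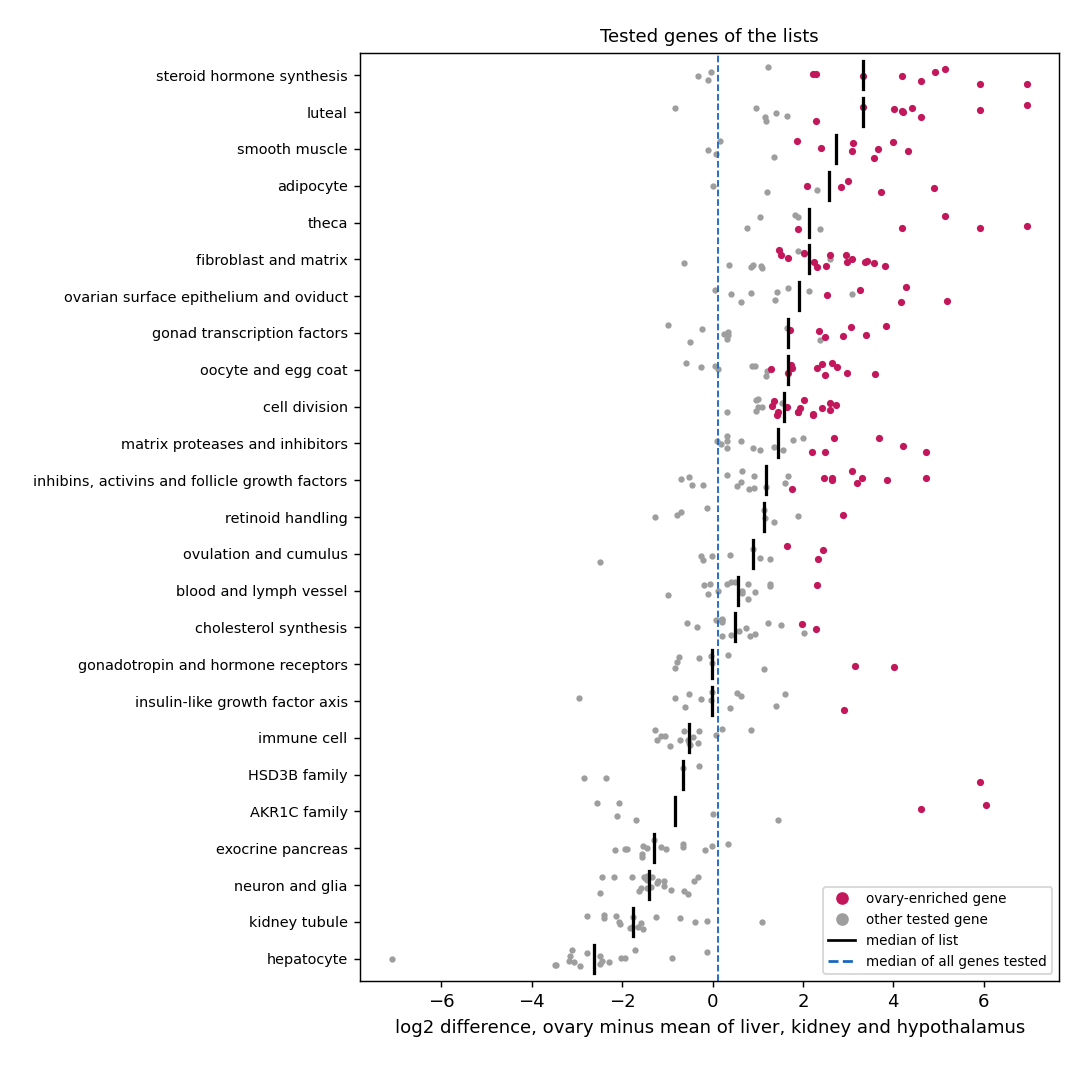
Log2 difference of ovary from the mean of liver, kidney and hypothalamus for the tested genes of 25 lists, 1 point per gene, pink where ovary-enriched, with the median of each list as a black bar and the median of all genes (0.12) as a dashed line. Steroid synthesis and luteal genes have medians of 3.33 at the top, and hepatocyte genes one of -2.63 at the bottom.

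Of 22 tested genes of the cell cycle, 21 were higher in ovary, 0 were lower and 15 were ovary-enriched, with a median difference of 1.59, while Ccne1 did not pass. Without ovary 1 these counts were 22 higher and 13 enriched. Bub1b, a spindle checkpoint kinase, read 492.2, 265.1 and 372.4 in ovary and at most 24.9 elsewhere. Top2a, which untangles DNA in dividing cells, read 866.6, 625.7 and 800.2 in ovary and at most 183.4 elsewhere. Cdk1, the kinase that starts mitosis, read 1170.4, 659.4 and 965.9 in ovary and at most 303.5 elsewhere. Ovary 2 was the lowest in these genes. Mcm2, a part of the replicative helicase and the 1 cell cycle gene that passed the F test between the ovary samples, was instead lowest in ovary 1, with 452, 922.9 and 1628.5 in ovary 1, 2 and 3. Which cells divided was not measured.

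Genes of the corpus luteum and of the theca overlap with those of steroid synthesis, so their counts are not separate evidence. Of 15 luteal genes, 14 were higher and 9 enriched, and of 10 theca genes 10 were higher and 5 enriched. Among those not in steroid synthesis, Sfrp4, a secreted Wnt antagonist, read 11815.9, 12240.8 and 9578.3 in ovary and at most 810 elsewhere. Timp1, an inhibitor of matrix proteases, read 3352.6, 3307.4 and 3622.6 in ovary and at most 261.6 elsewhere. Apoe was the 1 luteal gene that was lower, by 0.82 on the log2 scale. Ovary 1 was the highest of the 3 samples in 0 of 13 steroid and 0 of 15 luteal genes. The summed intensity of the steroid list was 62877, 77594 and 75079 in ovary 1, 2 and 3, and that of the oocyte list 15509, 11577 and 14333. None of the steroid, luteal or theca genes passed the F test between the ovary samples. Only 57 of all 8714 genes bright enough in ovary passed it, so this says little for such short lists.

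Proteases and their inhibitors, which open the follicle and rebuild it, were higher in 14 of 18 cases, lower in 0 and enriched in 6. Prss35, a serine protease of the follicle wall, read 2080.9, 2267.8 and 2409.1 in ovary and at most 80.7 elsewhere. Mmp2 and Mmp11, matrix metalloproteases, had smallest differences of 2.47 and 3.34. Genes of ovulation itself were mixed. Of 11 tested, 7 were higher, 1 lower and 3 enriched. Vcan, which swells the cumulus matrix, read 841.8, 618.6 and 715.4 in ovary and at most 291.7 elsewhere. Ptgs2, Tnfaip6 and Btc, genes that rise shortly before ovulation, did not pass, with differences of -0.02, -0.21 and -0.26. Ptgs2 read 146.3, 113.1 and 106.4 in ovary, inside the range of the other tissues. Snap25, a synaptic protein, was lower than the mean, with hypothalamus at 7407.2 to 8306.4.

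Connective tissue genes were high in ovary. Of 24 tested genes of fibroblasts and matrix, 23 were higher in ovary, 1 was lower and 15 were ovary-enriched, with a median difference of 2.13. Ogn, a small leucine-rich proteoglycan, read 3034.1, 3185.1 and 3411 in ovary and at most 621.2 elsewhere. The collagen genes Col1a1, Col1a2, Col3a1, Col5a2 and Col6a1 were all enriched, and Col6a1 read 4817.4, 4255.9 and 4156 in ovary and at most 488.3 elsewhere. Thy1 was lower, with hypothalamus at 4940.4 to 5636.5.

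Other cells that a dissected ovary can carry were measured by their own markers. Of 12 smooth muscle genes, 9 were higher and 8 enriched. Cnn1, the calponin of smooth muscle, read 1638.9, 1413 and 1241.6 in ovary and at most 57.1 elsewhere, and Myh11 2046.1, 1613.8 and 1670.6, against at most 157.8. Of 14 genes of surface epithelium and oviduct, 13 were higher than the mean. Only 5 were higher than each tissue, against 16.2% of all genes, and these 5 were enriched. The median of the smallest differences was -0.52, so many members were higher in another tissue. Ovgp1, the glycoprotein that oviduct cells secrete, read 10058, 7670.2 and 8205.2 in ovary and at most 353.1 elsewhere. Foxj1, the factor of ciliated cells, read 930.6, 1186.6 and 1323.3 in ovary and at most 364.7 elsewhere, and the mesothelial gene Upk3b 2042.1, 1752.2 and 1622.7, against at most 317.7. Krt19 and Sprr2f, genes of epithelia, were also enriched. Epcam was as high in kidney, with a smallest difference of -0.20.

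Fat genes were present as well. Of 8 adipocyte genes, 7 were higher and 5 enriched. Adipoq, the fat hormone adiponectin, read 4802.1, 6499.7 and 5008.5 in ovary, against 554.5 to 1394.9 in kidney, at most 103 in liver and at most 18 in hypothalamus. Ovary 2 was the highest of the 3 in 7 of 8 fat genes (87.5%), against 28.6% of all 8714 genes bright enough in ovary. The summed adipocyte level was 24501, 36478 and 27468 in ovary 1, 2 and 3, against 9961 to 15873 in kidney and 16631 to 20744 in liver. The summed level of surface and oviduct genes was 30480, 25528 and 25570 in ovary 1, 2 and 3, and that of smooth muscle 27992, 24410 and 25337. The part of these cell types in the other gene groups was not tested.

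**Figure D4:**
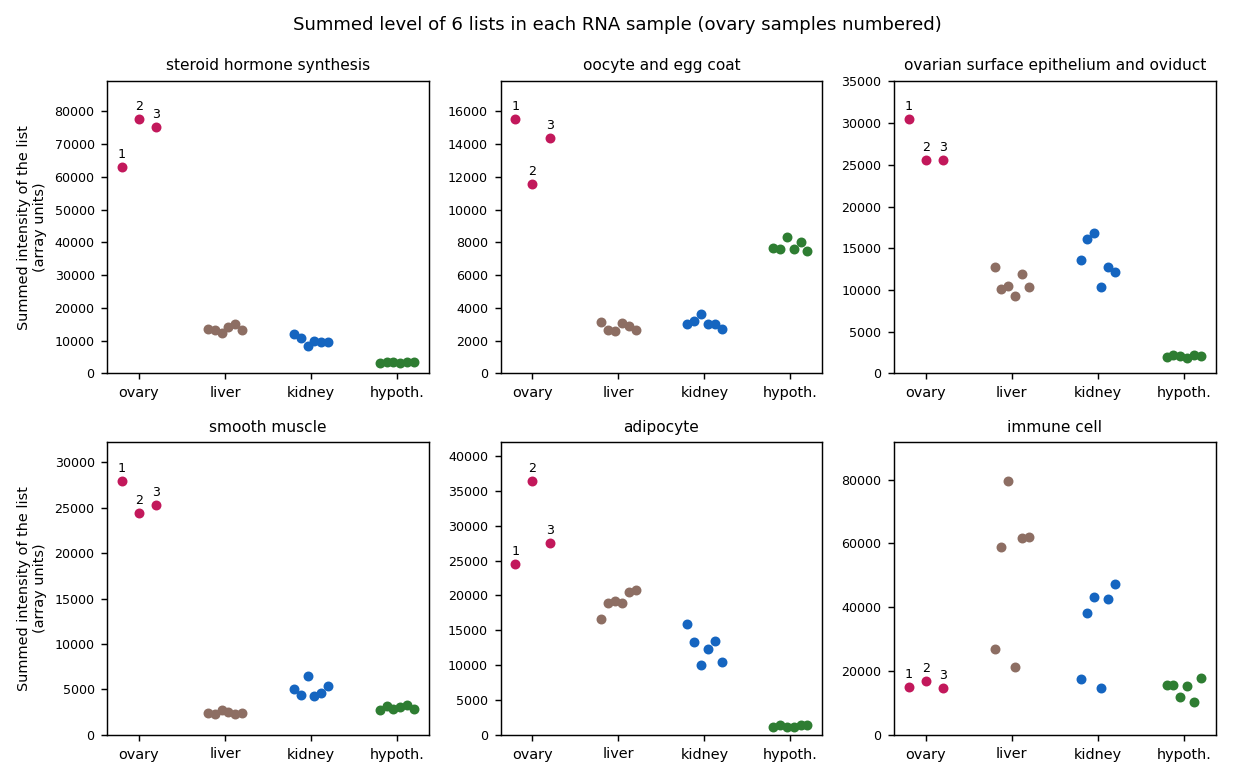
Summed intensity (array units) of the genes of 6 lists in each RNA sample, with ovary 1, 2 and 3 numbered and 6 samples in each other tissue. The ovary samples lie above all others for steroid synthesis, oocyte, surface and oviduct, smooth muscle and adipocyte genes, and for immune genes they lie at 14636 to 16930, below all liver samples.

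Of 16 vessel genes, 11 were higher than the mean, against 39.6% of all genes. Higher than each tissue were 2, against 16.2% of all genes, and 1 was enriched, against 4.65%. These last 2 counts were near the shares of all genes. The enriched gene, Sox17, read 1118.8, 1235.6 and 1178.3 in ovary and at most 369.6 elsewhere. Pecam1, the usual endothelial marker, had a smallest difference of 0.20. Of 16 immune genes, 0 were higher, 7 were lower and 9 did not pass. The lower ones numbered 5 without ovary 1 and 11 with median centring, and after quantile normalization 9 were lower and 1 was higher. Csf1r, the receptor of macrophage growth factor, read 1606.3, 1706.1 and 1748.1 in ovary, below all other samples, and Ptprc, the common leukocyte antigen, 252.9, 312.8 and 289.9, against 761.7 to 2312.7 in liver. The immune sum was 15125, 16930 and 14636 in ovary 1, 2 and 3. It varied within liver, where male 1 and female 1 had 21361 and 26795 and the other 4 samples 58960 to 79704. In kidney it was 14715 and 17353 in male 1 and female 1, against 38133 to 47295 in the other 4.

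Among the genes lower in ovary than in each tissue, 38 (0.380%) were at least 2-fold lower than each and had all ovary samples below all others. Ttr, the carrier of thyroid hormone and retinol, led them with 23.3, 31 and 26.2 in ovary, against 2848.5 to 21863.2 elsewhere, a difference of -7.09 ± 0.15 (SE, limma adjusted p = 8.71e-18). Slc27a2, which takes up and activates fatty acids, read 22.3, 16.8 and 22.6 in ovary, against 208.8 to 242.1 in hypothalamus and at least 9371.5 in liver and 10164.3 in kidney. Ddc, which makes dopamine and serotonin from their precursors, read 91.7, 77.3 and 65.5 in ovary and at least 921.3 elsewhere. Gjb1, a gap junction protein, read 27.2, 28.4 and 27.1 in ovary and at least 209.9 elsewhere. Fabp7, Abat and Ifit3 followed with differences of -3.45, -2.34 and -2.08. Tuba4a was lower by 2.44 on the log2 scale with its brightest probe set and by 2.32 with another, but a further probe set gave 0.08 (limma adjusted p = 0.709).

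Marker genes of the other organs were low in ovary. Of 18 hepatocyte genes, 17 were lower and 0 higher, of 17 kidney tubule genes 14 were lower and 1, Calb1, higher, and of 22 genes of neurons and glia 22 were lower (20 without ovary 1). Lower than each tissue were 2 hepatocyte, 2 tubule and 0 neuron and glia genes, against 2.97% of all genes. The hepatocyte sum was 3416 to 6045 in ovary, against at least 18873 in kidney and 10057 in hypothalamus. The tubule sum was 5040 to 5797 in ovary, above the 3538 to 3854 of liver. The neuron and glia sum was 2546 to 2766 in ovary and 2434 to 2799 in liver. Alb, the serum albumin gene, read 101.8, 190.6 and 151.4 in ovary, against 19667.9 to 24141.8 in liver. Calb1, a calcium-binding protein, read 2027.3, 2604.4 and 2415.8 in ovary, with medians of 43.3 in liver, 5588.4 in kidney and 2735.5 in hypothalamus. Of 15 genes of exocrine pancreas, 11 were lower in ovary than the mean and 0 lower than each tissue. Their sum was 1983 to 2611 in ovary, against 13041 to 64528 in liver, and the lowest liver value of Cpb1, a pancreatic protease, was 937.5. Pancreatic markers thus moved with liver, and their part in the comparison of ovary with liver was not tested.

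The 8 genes that differed most between the ovary samples set ovary 1 against ovary 2 and 3. Each is given by its probe set of largest range, which need not be its brightest. H2-D1, a class I antigen of the major histocompatibility complex that varies between mouse strains, read 30.4 in ovary 1, 2906.2 in ovary 2 and 2570.8 in ovary 3. H2-Ea, a class II chain that mice of some H2 types do not transcribe, read 111.1, 1486.7 and 1550.7. Pdxdc1 and Gbp2b were low in ovary 1 too, with 103.3, 1530.2 and 1652.1 and with 69.2, 850.3 and 845.1. Rps9, Rpgrip1, Exosc1 and Arl2bp ran the other way, at 1859.7, 870.9, 535.7 and 1335.1 in ovary 1 and at most 205.7 in ovary 2 and 3. Both arrays of each sample fell on the same side in these 8 genes. The F test that chose the genes favours such agreement, so it is not separate evidence. Probe sets of 1 gene did not always run alike, since other probe sets for Pdxdc1 read 941.9, 107.5 and 86.6 and 761, 388.8 and 283.7 in ovary 1, 2 and 3, which is the opposite direction. The number 1 samples of the other tissues stood apart in some of these genes too. Male 1 and female 1 lay on 1 side of the other 4 samples in 6 of the 8 genes in liver, 5 in kidney and 2 in hypothalamus, and on the same side as ovary 1 in 3, 3 and 0 of them. In liver, Gbp2b read 315.7 and 443.7 in male 1 and female 1, against 1252.7 to 2309.6 in the others, and H2-Ea 697.5 and 852.9, against 1593.2 to 2279.2. Exosc1 was higher there in male 1 and female 1, with 137.3 and 268.9, against 31.6 to 79.8. H2-D1 ran opposite to ovary, with 507.7 and 711.4 in male 1 and female 1 of liver, against 180.8 to 320.1 in the others. The H2-D1 probe sets can read near copies of the gene. A brighter 1, at 12579.5 to 15872 in liver, differed less, with 1894.3, 4360.1 and 3322.6 in ovary 1, 2 and 3. Other H2-D1 probe sets ran close to the first, with 42, 3109.6 and 2794.4 and with 51.4, 2839 and 2385.2 in ovary 1, 2 and 3. The size of the difference thus depended on the probe set.

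Of the 98 called probe sets with 1 gene symbol, 15 lay on chromosome 17 (15.3%), which carries the histocompatibility complex, against 4.95% of the 13273 tested. These are counts of probe sets, and the 98 stood for 86 genes. H2-D1, H2-Ea and Prss29 each entered the 15 with more than 1 probe set, which raises the share. The share by gene was not computed. Of all 116, 54 were higher and 42 lower in ovary 1. Among the 465 ovary-enriched genes, 7 differed between the ovary samples: Cyp4f18, S100a4, Serpina3a, Fxyd3, Smpx, Procr and Mcm2. Of all 8714 genes bright enough in ovary, 57 did, each gene given by its brightest probe set. Cyp4f18, a cytochrome of fatty acid breakdown, read 496.3, 1954.8 and 1168 in ovary and at most 17.6 elsewhere. Among the 25 genes ranked highest, leaving out ovary 1 and testing the same probe sets moved the difference from the mean by at most 0.50, in Cyp4f18. The F test asks whether samples differ beyond the repeat error of arrays and says nothing of ovaries in general.

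**Figure D5:**
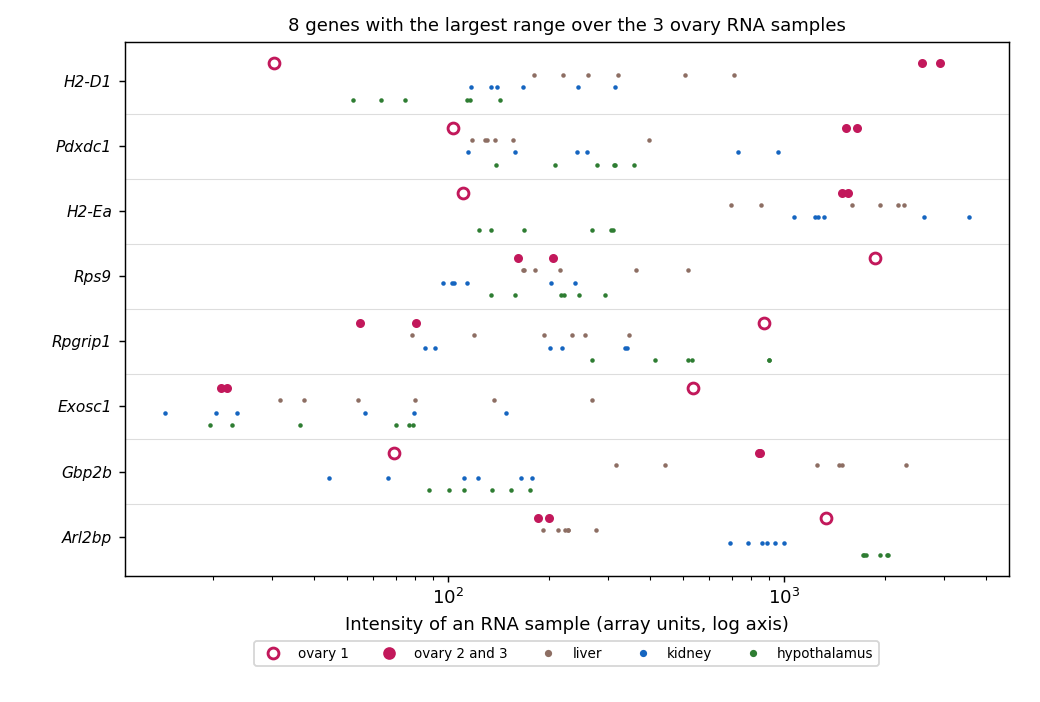
Intensity (array units, log axis) of the 8 genes with the largest range over the 3 ovary RNA samples, with ovary 1 as an open circle, ovary 2 and 3 as filled circles and the samples of liver, kidney and hypothalamus as dots. Ovary 2 and 3 lie together in all 8 genes and ovary 1 lies apart. Each gene is shown by its probe set of largest range.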

How the data were processed

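Mouse RNA was measured on 48 Affymetrix arrays, and the 42 arrays (21 RNA samples) of ovary, liver, kidney and hypothalamus were used here. The table deposited by the authors gives each probe set an intensity per array, not log-transformed. The 2% trimmed mean was 500.11 to 500.23 on every array, as after scaling to a common mean. No software or probe-set summary is named in the sources used here. Arrays were scaled to 1 trimmed mean, 48.3 (the 20th percentile) was added, and each RNA sample is the mean of its 2 arrays on log2. Their correlation was 0.9656 to 0.99.

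Of 22626 probe sets without controls, 20380 had 1 gene symbol, 691 several and 1555 none. Entrez IDs linked 20351 to RefSeq's GRCm38.p6, used for symbols, chromosomes and promoter windows. Unmatched and shared probe sets are not named, and the brightest tested probe set stands for a gene. A probe set was tested where both arrays of at least 3 RNA samples exceeded the 40th percentile of the array. Detection calls were not used here.

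The test was limma 3.58.1 under R 4.3.3, with lmFit and eBayes in 1 fit of 7 group means (ovary, and each tissue and sex), with Benjamini-Hochberg adjustment over all 16735 probe sets. The 3 tissues weigh equally in the mean contrast. Named genes were the 25 enriched with the largest smallest difference, the 8 most reduced against every tissue, up to 4 per list with the lowest p, all AKR1C, HSD3B and sex-linked members, and the 8 with the largest range within ovary; members outside this rule were named after their values were seen. The members, lists and tests were chosen with earlier results of these data known. The fit was tested on simulated data. Alternatives covered scaling, pseudocount, filter, arrays, group means, tissues, variance model and replicates. Figures used matplotlib 3.10.9 in Python 3.11.15.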

Additional observations from a re-analysis of the deposited data

Results flagged for a closer look

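For the 34 genes of the highest and lowest ranks and the ovary markers, 102 sets of 6 RNA samples (each gene in liver, kidney and hypothalamus) were looked at for 1 sample far from the other 5, with a gap to the nearest value above 0.625 of the whole range. Chance gives about 1 in 20 such sets, and 11 were found. None touches a value of ovary, and all ovary samples stayed on their side of these values.

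Liver male 2 stood above the other liver samples in 4 ovary-enriched genes. It read 188.5 for Cyp11a1, against 4.9 to 12.3 in the others, 420.1 for Akr1cl, against 88.7 to 126.3, 542.9 for Inha, against 300.3 to 362.3, and 17.6 for Cyp4f18, against 5.4 to 8.7. Liver male 1 read 37.2 for Serpina5, against 7.6 to 13.1, and liver female 3 read 23.7 for Amh, below the 37.8 to 46.5 of the others. Dcpp1 read 38 in kidney male 1, with the lowest of the others at 5.1, and 27.8 in hypothalamus male 1, against 5.8 to 12.6. Akr1c18 read 2611.5 in kidney female 1, against 905.2 to 1287.8 in the other kidney samples. Slc27a2 read 10164.3 in kidney female 1, below 12474.6 to 13808.4, and Ifit3 read 1445 in hypothalamus male 3, against 630 to 823.5.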

How the results depend on the processing

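Under 39 alternatives, 1809 values of 48 named genes kept direction and side of the threshold, 13 no longer passed, 1 newly passed (Akr1c13 without liver, 1.18) and 3 turned round, namely Akr1c13 (-1.25) and Akr1c14 (-0.04) without hypothalamus and Hsd3b7 (1.11) without liver. Genes no longer tested under an alternative gave no value and are not counted. Without ovary 1 and with the choice of probe sets repeated, these were Dcpp1, Hsd17b1, Prss35, Cyp4f18, Cst12, Cnn1, Tnni3, Thbs4, Sprr2f, Serpina5 and Amh. Probe sets lower than each tissue, 495, became 1066 with median centring and 822 after quantile normalization, and the share of calls that were higher, 60.7%, became 43.4% and 50.3%, with the median of all probe sets at 0.11, -0.07 and -0.01. Ovary-enriched probe sets, 695, became 457 with 4 times the pseudocount. Differences between ovary samples, 116 probe sets, became 226 with 4 times the pseudocount, 45 with no filter, 224 with the stricter filter and 238 with an intensity trend. The cause of these changes was not tested.

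Leaving out each RNA sample in turn gave 8897 to 10645 calls against the mean (10463 with all samples), 2424 to 3060 against each tissue and 553 to 705 enriched probe sets. Without ovary 1 there were 556, with 545 of the 695 still tested, and 702 when the same probe sets were tested, a setting chosen after seeing the data. Samples of the same number in ovary and the other tissues correlated by 0.0548, 0.134 and 0.138 in their deviations from group means. Samples of different number correlated by -0.0985 to -0.0116, so all same-number values were the higher ones. Deviations within a group cancel out, so positive same-number values force the different-number values to be negative on balance. The contrast between them is thus partly built in. The numbers were not taken as pairs in the main fit, and what they share was not tested. With the number as a replicate block, 695 probe sets were enriched, all of them shared. Xist did not pass against female samples alone (0.55, limma adjusted p = 0.0519), and the Y-linked genes did not pass with 4 tissue means. Dim genes are limited by the pseudocount, and 2392 genes with a probe set were not tested.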

Other observations

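Of the 465 ovary-enriched genes, 365 were on none of the 27 lists, and the following were picked from these after their values were seen. Clca1, a secreted protein of goblet cells, read 653.3, 421.6 and 525.3 in ovary 1, 2 and 3 and at most 6.9 in the other 18 samples (limma adjusted p = 1.16e-16). Agr2, which helps mucins to fold, read 295.5, 385.2 and 460.3 in ovary and at most 14.8 elsewhere. Fcgbp, a mucus protein, read 822.7, 1005.1 and 1119.7 in ovary and at most 163.4 elsewhere, and Ltf, the iron-binding lactoferrin of secretions, 4086.5, 5651.4 and 5097.2, against at most 811.4. Dcpp1, a salivary-type secreted protein also known from the oviduct, read 2082.5, 1224.2 and 1960.5 in ovary and at most 38 elsewhere. Ovgp1 and Foxj1 of the oviduct list were high in the same samples, and the part of oviduct in these values was not tested.

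Hdc, which makes histamine, read 2626.3, 1915 and 2113.4 in ovary. It read 815.7 and 752.5 in male 1 and female 1 of kidney and 10.6 to 32.2 in the other 4 kidney samples. Alox15, a lipoxygenase of fatty acids, read 916.4, 661.4 and 827.7 in ovary and at most 86.5 elsewhere. Ptgis, the prostacyclin synthase, read 2034.5, 1550.7 and 1717.1 in ovary and at most 332.7 elsewhere. Greb1, a gene that oestrogen induces in breast cancer cells, read 851.7, 755.2 and 1008.6 in ovary and at most 49.4 elsewhere. Tnni3, the troponin of heart muscle, read 1139.2, 861.3 and 1039.5 in ovary and at most 23.1 elsewhere, with a difference of 4.11 ± 0.09 (SE, limma adjusted p = 1.12e-17).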
